A study of Mus musculus with 4 samples.

Results

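The genes described here encode the enzymes and surface proteins that handle stored fat in the adipocyte: the lipases *Pnpla2*, *Lipe*, *Mgll* and *Ces1d*, the lipase regulators *Abhd5* and *G0s2*, the droplet coat proteins *Plin1*, *Plin2* and *Plin4*, and the droplet fusion protein *Cidec*. They were chosen by gene symbol, and all 10 of them were found among the 24421 symbols of the deposited matrices. RNA-seq had been run on epididymal adipose tissue, a visceral fat depot, of wild-type male C57BL/6J mice with diet-induced obesity. WC1 mice, the weight-cycling group, began a high-fat diet (HFD) at an age of 8 weeks, ate it for 8 weeks, lost weight on standard diet (SD) over 2 weeks, and returned to HFD for the last 6 weeks. Ctrl mice, the comparison group, began HFD at an age of 10 weeks and stayed on it for 14 weeks, so that both groups were 24 weeks old at the end and had spent 14 weeks on HFD in total. No mutant allele, transgene or drug was involved in either group. The comparison asks how a past bout of weight loss and regain leaves the lipolytic and droplet genes of this depot. The groups also differed in age at first HFD and in the last unbroken period on HFD, 6 weeks in WC1 and 14 in Ctrl. These differences cannot be told apart from the weight loss.

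Adipocytes keep triglyceride in a large droplet that is bounded by a phospholipid layer and a coat of proteins. Lipolysis empties it in steps: adipose triglyceride lipase removes a fatty acid from triglyceride, hormone-sensitive lipase acts on the diglyceride that is left, and monoglyceride lipase releases glycerol. In resting adipocytes perilipin 1 covers the droplet and holds the co-activator of adipose triglyceride lipase away from the enzyme, and catecholamines, which act through cAMP, release it. Macrophages that take up lipid also form droplets, which carry perilipin 2 rather than perilipin 1.

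There were 2 libraries per group, written below as Ctrl 1, Ctrl 2, WC1 1 and WC1 2, with between 61465029 and 90965297 reads each. Levels are given as CPM, reads in proportion to a library size that the authors set, or, where genes are compared with each other, as TPM, which also divides by transcript length. The members took between 4990 and 219131 reads per gene and library, so counting error was small beside the spread between libraries. The labels do not say that the libraries of a group came from separate animals, and p-values then measure only the spread between these samples, which may be technical. The tissue label was checked against markers: all 12 adipocyte markers were detected in every library, while the 6 epididymis markers summed to between 0.127 and 3.24 CPM and 4 of them were at 0 in every library. The tissue was sequenced in bulk, and fewer cells of a type and less RNA per cell cannot be told apart.

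The sequences upstream of the members are shown here because 9 of the 10 lay higher in both WC1 libraries and *Plin2* lay lower. RefSeq (GRCm38.p6) gave 12 promoter windows of 300 bases, from 250 before to 50 after a transcription start, for 9 of the members, and *Ces1d* was not among them. Printed below, 5′ to 3′, are the windows of *Plin2* (chr4:86670050-86670309, minus strand), *Abhd5* (chr9:122351366-122351625, plus strand), *Lipe* (chr7:25395978-25396237, minus strand, a start inside the annotated gene) and *Mgll* (chr6:88724162-88724421, plus strand), which hold the matches discussed next, and of *Plin1* (chr7:79732767-79733026, minus strand), the adipocyte coat gene, which holds neither motif. The *Plin1* start also lies inside its annotated gene, and that of *Abhd5* lies a few bases inside. Each window is cut 10 bases after its start. Capitals mark AGGTCA, the element repeated in sites for PPARγ with its partner RXR, also where it is read on the opposite strand as TGACCT, and CACGTG, the E-box palindrome.
Plin2: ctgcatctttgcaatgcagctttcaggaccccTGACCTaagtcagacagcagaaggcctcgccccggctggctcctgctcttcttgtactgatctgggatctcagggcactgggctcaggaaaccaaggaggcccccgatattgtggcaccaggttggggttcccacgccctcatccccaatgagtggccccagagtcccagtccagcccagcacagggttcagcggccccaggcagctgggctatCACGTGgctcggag
Abhd5: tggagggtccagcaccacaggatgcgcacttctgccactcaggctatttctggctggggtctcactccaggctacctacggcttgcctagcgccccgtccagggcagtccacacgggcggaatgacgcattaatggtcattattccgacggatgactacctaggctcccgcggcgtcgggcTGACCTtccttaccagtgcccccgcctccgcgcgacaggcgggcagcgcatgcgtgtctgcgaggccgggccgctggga
Lipe: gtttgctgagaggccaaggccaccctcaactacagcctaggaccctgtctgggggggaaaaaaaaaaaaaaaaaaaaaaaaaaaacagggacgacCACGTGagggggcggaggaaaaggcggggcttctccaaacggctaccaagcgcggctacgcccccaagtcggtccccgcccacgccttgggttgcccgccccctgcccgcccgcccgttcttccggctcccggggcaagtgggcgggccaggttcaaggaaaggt
Mgll: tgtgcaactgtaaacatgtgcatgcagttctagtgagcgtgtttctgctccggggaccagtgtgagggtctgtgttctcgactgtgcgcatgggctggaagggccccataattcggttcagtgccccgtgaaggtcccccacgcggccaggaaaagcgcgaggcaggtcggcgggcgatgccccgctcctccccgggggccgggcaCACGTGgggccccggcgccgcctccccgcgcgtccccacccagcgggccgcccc
Plin1: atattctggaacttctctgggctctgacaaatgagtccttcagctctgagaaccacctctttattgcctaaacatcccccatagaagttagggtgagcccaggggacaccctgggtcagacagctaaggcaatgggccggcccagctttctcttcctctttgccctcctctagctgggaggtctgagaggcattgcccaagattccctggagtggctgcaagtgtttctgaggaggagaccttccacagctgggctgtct

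Both strands of the full windows were searched, and positions are counted from the start site. DR1, the tandem repeat of AGGTCA with 1 base between its copies, was in 0 of the 12 member windows and in 0.0396% of all 32851 windows. The single AGGTCA was in 2 member windows, those of *Plin2* (beginning at -218) and *Abhd5* (at -69), and in 16.3% of all windows. CACGTG was in 3, those of *Plin2* (at -4), *Mgll* (at -44) and *Lipe* (at -155), and in 7.15% of all windows. The loose C/EBP pattern TTNNGNAA, which includes the palindrome TTGCGCAA, was in 3 member windows, of which 2 belong to *Cidec* and 1 to *Plin1*, and in 40.7% of all. TTGCGCAA itself, the sterol element TCACNCCAC, the cAMP element TGACGTCA and TATAAA were in none of the member windows, and in 0.183%, 1.24%, 1.79% and 13.6% of all windows. These matches describe letters in a short window and show no binding. The last 50 bases of a window lay in a GENCODE transcript of its gene for 8 of the 12 windows. They did not for the *Cidec* windows, the *Pnpla2* window and the *Lipe* window that is not printed. The *Plin2* window alone among the 12 held both AGGTCA and CACGTG. The share of all windows that hold both was not counted, and a link to the direction of *Plin2* was not tested.

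Of the 10 members, 8 rose in WC1 and 0 fell (limma on log2(CPM + 1), Benjamini-Hochberg adjusted p between 0.018 and 0.047, with a gene called where it was below 0.05). Among all 14106 genes tested, 10.2% were called higher and 7.71% lower. *Cidec* and *Plin2* were not called. Every member separated the groups: in 9 both WC1 libraries lay above both Ctrl libraries, which held for 32.7% of all genes tested, and in *Plin2* both lay below, which held for 36.6%. The median log2 change of the members was 0.89, against -0.019 over all genes tested. Run on reads recovered from the CPM, edgeR called 8 members higher and 0 lower, where it called 10.5% and 7.14% of all genes. DESeq2 called 9 higher and 0 lower (15.1% and 12.3% of all genes), and limma on TPM also called 9 and 0 (14.6% and 4.13%). Without the filter on low values, limma called 2 members higher (*Mgll* and *Ces1d*) and 0 lower, where it called 4.35% and 2.93% of all genes, so that 6 calls were lost. At an unadjusted p under 0.05 limma on CPM counted 9 members, all of them higher, and 37.8% of all genes in either direction.

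The libraries within a group were ordered too. In 9 members the levels ran from Ctrl 1 through Ctrl 2 and WC1 1 to WC1 2, and in *Plin2* they ran the other way. How many of all genes tested ran in either order was not counted, so the order is not read as particular to the members. The ratio of Ctrl 2 to Ctrl 1 lay between 0.965 and 1.26, and that of WC1 2 to WC1 1 between 0.738, for *Plin2*, and 1.36, for *Lipe*. The calls depended on both Ctrl libraries: without Ctrl 1 or without Ctrl 2, 0 members passed the adjusted threshold, while 0.0142% and 0.0284% of all genes were called higher and lower without Ctrl 1, and 0.0425% each way without Ctrl 2. At an unadjusted p under 0.05 limma counted 6 and 8 members there, and 18.6% and 22.1% of all genes. Without WC1 1 all 10 members passed, *Plin2* as lower, and the shares of all genes were also larger, at 17.2% higher and 19.5% lower. Without WC1 2 there were 8, with 10.1% and 8.73% of all genes. Each of these fits leaves 1 library in a group, so the spread comes from the other group and is taken to hold for both. The median log2 change ranged from 0.68 to 1.03 over these 4 fits.

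**Figure D1:**
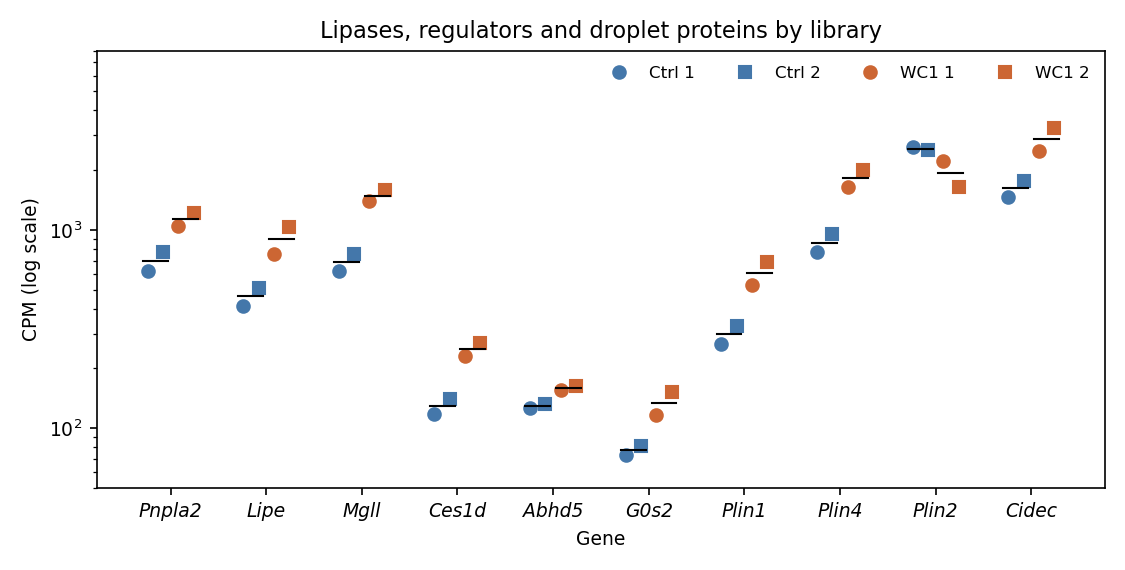
CPM of each gene (log axis) in the 4 libraries, circles for library 1 and squares for library 2 of each group, with black bars at the group means. In 9 genes both WC1 points (orange) lie above both Ctrl points (blue), and for Plin2 they lie below, at 2223 and 1641 against 2611 and 2518 CPM.

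The lipases were considered first. *Pnpla2* (chr7:141455198-141460743), which encodes adipose triglyceride lipase, the enzyme of the first step, stood at 617 and 775 CPM in Ctrl against 1046 and 1214 CPM in WC1. Its mean thus went from 696 ± 111 to 1130 ± 119 CPM (SD, n = 2 each), a log2 change of 0.70 ± 0.16 (SE; limma, adjusted p = 0.044). *Lipe* (chr7:25379527-25398710), the gene of hormone-sensitive lipase, stood at 414 and 510 CPM in Ctrl against 759 and 1032 CPM in WC1, and its WC1 libraries were 1.36-fold apart, more than those of *Pnpla2*, *Mgll* or *Ces1d*. The log2 change was 0.94 ± 0.19 (adjusted p = 0.036). *Mgll* (chr6:88724412-88828360), which encodes monoglyceride lipase, had the largest log2 change of the 10 genes, within the error of those of *Plin4* and *Plin1*, and rose from 619.9 and 753 to 1391.5 and 1586 CPM. Its log2 change was 1.12 ± 0.15 (95% confidence interval, 0.73 to 1.51; adjusted p = 0.019), so that the messages for the enzymes of all 3 steps rose.

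*Ces1d* (chr8:93166068-93197838), a carboxylesterase of the endoplasmic reticulum that can also hydrolyse triglyceride, stood at 118 and 139.5 CPM in Ctrl against 231 and 268 CPM in WC1. It rose by a log2 change of 0.95 ± 0.12, the smallest adjusted p of the set (0.018, limma). Reads that *Ces1d* shares with its close paralogs may have been divided in a way the sources used here do not give. The paralog *Ces1f* was at 21.8 to 27.9 CPM in all 4 libraries, and it was not called. Summed over these 4 lipase genes, TPM was 1152 and 1428 in Ctrl against 2391 and 2954 in WC1.

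The messages for the co-activator and an inhibitor of adipose triglyceride lipase rose as well. *Abhd5* (chr9:122351608-122381524), which encodes the co-activator CGI-58, had the smallest change of the called members, from 127 and 133 to 156 and 164 CPM. Its libraries lay close together, and the log2 change of 0.30 ± 0.070 passed narrowly (adjusted p = 0.047). It missed the threshold with edgeR (adjusted p = 0.055) and without WC1 2 (adjusted p = 0.052, limma). *G0s2* (chr1:193272161-193273217), which encodes a protein that binds and inhibits adipose triglyceride lipase, stood at 73.0 and 81.6 CPM in Ctrl against 116 and 153 CPM in WC1, a log2 change of 0.78 ± 0.15 (adjusted p = 0.031). *Lamb3*, a laminin gene that overlaps *G0s2* on the opposite strand, stood at 5.23, 7.23, 12.5 and 24.1 CPM in Ctrl 1, Ctrl 2, WC1 1 and WC1 2. Whether reads were counted by strand is not given, so a share of its reads in *G0s2* cannot be told apart.

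Of the coat protein genes, those typical of adipocytes rose. *Plin1* (chr7:79720218-79732903), whose product is the main coat of the adipocyte droplet, went from 266 and 328 CPM in Ctrl to 526 and 692 CPM in WC1, a log2 change of 1.03 ± 0.18 (limma, adjusted p = 0.026). *Plin4* (chr17:56100591-56109803), which encodes a perilipin of adipocytes found on small, newly formed droplets, went from 775 and 949 to 1654 and 2003 CPM. Its log2 change of 1.08 ± 0.17 (adjusted p = 0.024) was within the error of that of *Plin1*. *Hdgfl2*, a gene that overlaps *Plin4* on the opposite strand, stood at 32.1 to 34.9 CPM in the 4 libraries. *Mgll*, *Lipe*, *Abhd5* and *Ces1d* also overlap non-coding or provisional genes in the annotation, of which 2 were in the matrices, the antisense genes at *Lipe* (0.391 to 1.10 CPM) and *Abhd5* (at 0 in every library).

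*Cidec* (chr6:113424634-113435760), which encodes FSP27, a protein that joins droplets into larger ones, stood at 1470.2 and 1764 CPM in Ctrl against 2505 and 3252 CPM in WC1. The groups did not overlap, but the log2 change of 0.83 ± 0.21 (95% confidence interval, 0.30 to 1.35) missed the threshold in limma (adjusted p = 0.053). Its call depended on the settings. The adjusted p was 0.042 with edgeR, 2.1e-05 with DESeq2, 0.040 on TPM, 0.046 under a filter at a mean of 5 CPM and 0.025 with the library number as a block, a fit that called 12.5% of all genes higher and 10.6% lower. It stayed above the threshold with a pseudocount of 0.1 (0.052) or 5 (0.056), with median-of-ratios size factors (0.053), with quantile normalization (0.063), without the filter on low values (0.11) and without Ctrl 1 (0.43) or Ctrl 2 (0.27). Without WC1 1 it was 0.0038 and without WC1 2 it was 0.030, with the spread then taken from the Ctrl libraries alone.

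*Plin2* (chr4:86648386-86670060), the coat gene that many cell types use, lay in the other direction. It stood at 2611 and 2518 CPM in Ctrl against 2223 and 1641 CPM in WC1, and WC1 2 was lower than WC1 1 by more than the Ctrl libraries differed from each other. The log2 change was -0.42 ± 0.20 (95% confidence interval, -0.95 to 0.098) and did not pass (limma, adjusted p = 0.20). DESeq2 gave an adjusted p of 0.051 and edgeR 0.16. Without WC1 1 the log2 change was -0.64 (adjusted p = 0.0075), and without WC1 2 it was -0.21 (adjusted p = 0.27), so the size of this difference depended on which WC1 library was used, with the spread in both fits taken from the Ctrl libraries alone.

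**Figure D2:**
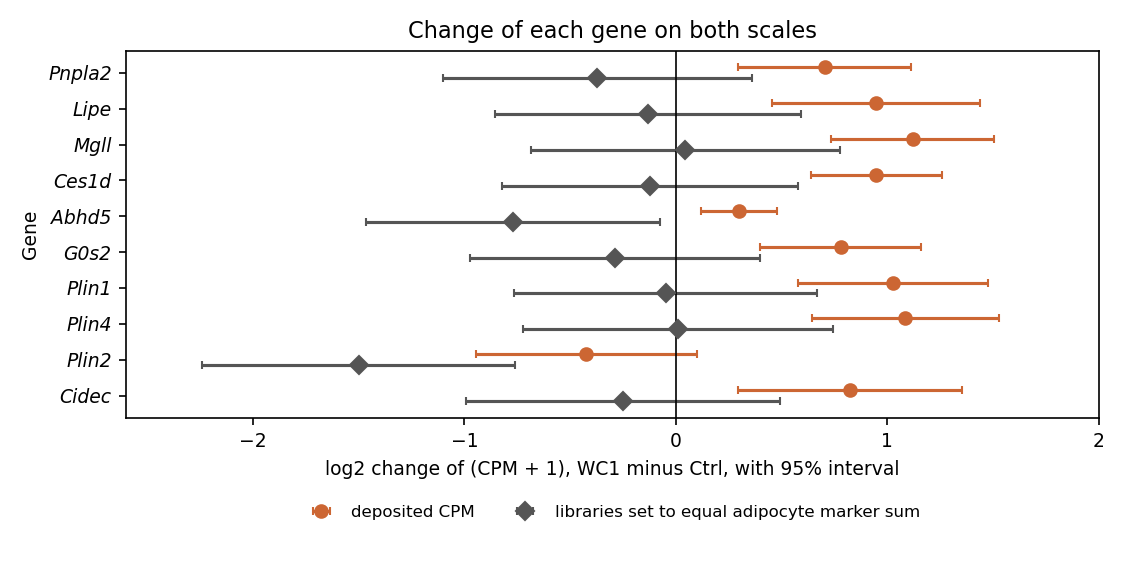
Log2 change of each gene (x axis, WC1 minus Ctrl) with its 95% confidence interval from limma, on deposited CPM (orange circles) and after setting the 4 libraries to an equal sum of adipocyte markers (grey diamonds). On CPM 9 genes lie right of 0, with Plin2 at -0.42, and after the scaling the intervals of 8 genes include 0, with Abhd5 at -0.77 and Plin2 at -1.50.

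Compared per length, the order of the members differed between groups at the top. In Ctrl *Plin2* led with 2609.9 ± 48.1 TPM (SD, n = 2), rank 36 among all genes, ahead of *Cidec* with 1824 ± 247 TPM. In WC1 *Cidec* led with 3586 ± 738 TPM, rank 23, ahead of *Plin2* with 2163 ± 413 TPM, and in neither group did the libraries of these 2 genes overlap. *Pnpla2* came next in both, at 507 ± 84.8 TPM in Ctrl and 913 ± 111 TPM in WC1, above *Mgll* (357 ± 51.4 and 855 ± 98.8 TPM), with overlap between the 2 genes in WC1 only. *Mgll*, *Plin1*, *Lipe* and *Plin4* followed within the spread of their neighbours in Ctrl, between 288 and 357 TPM, and likewise in WC1, between 636 and 855 TPM. The lowest places went to *G0s2* (176 ± 15.2 and 338 ± 72.6 TPM), *Ces1d* (126 ± 15.6 and 269 ± 34.4 TPM) and *Abhd5* (79.2 ± 2.92 and 108 ± 6.01 TPM) in both groups, and of these *G0s2* and *Ces1d* overlapped in WC1. The co-activator message was thus less abundant than those of the lipases in every library.

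The makeup of the coat transcripts shifted with this. As a share of the summed TPM of *Plin1*, *Plin2*, *Plin4* and *Cidec*, *Plin2* made up 54.8% and 49.2% in Ctrl against 36.6% and 24.9% in WC1. *Cidec* made up 34.2% and 38.2% in Ctrl against 45.7% and 54.6% in WC1. *Plin1* went from 5.62% and 6.45% to 8.71% and 10.5%, and *Plin4* from 5.34% and 6.09% to 8.94% and 9.96%. The groups did not overlap in any of these shares, which add to a fixed total and so are not independent. The sum itself was 4822 and 5230.3 TPM in Ctrl and 6702 and 7520.2 TPM in WC1.

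**Figure D3:**
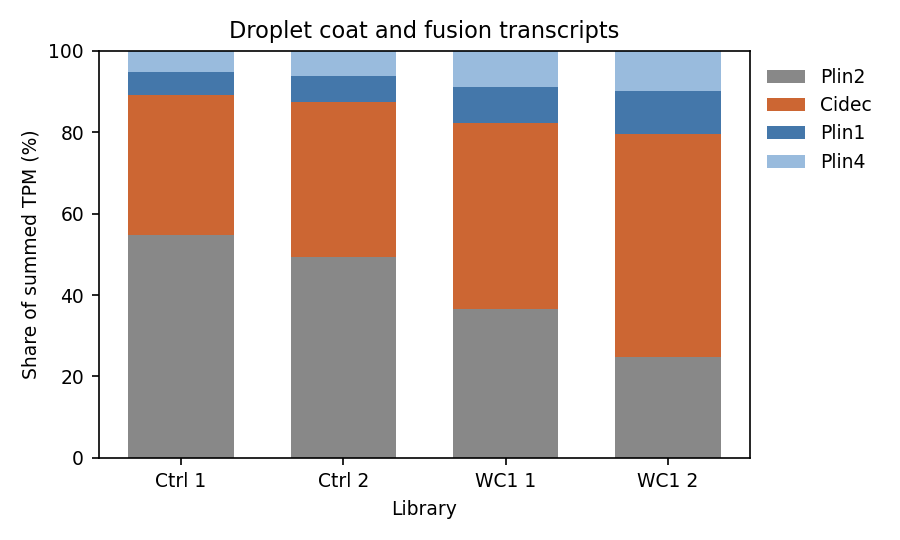
Share of the summed TPM (y axis, percent) that Plin2, Cidec, Plin1 and Plin4 took in each of the 4 libraries. The Plin2 share is 54.8% and 49.2% in the Ctrl libraries and 36.6% and 24.9% in the WC1 libraries, while the other 3 shares are larger in both WC1 libraries than in either Ctrl library.

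Ratios within a library were then used to see which genes kept step. An exact permutation test (two-sided) of such a ratio cannot go below p = 0.333 with 2 libraries against 2, so this test cannot reach 0.05 for any of the 8 ratios examined, which are given as values. *Plin4* to *Plin1* in TPM was 0.949 and 0.943 in Ctrl against 1.03 and 0.946 in WC1, and *Pnpla2* to its inhibitor *G0s2* was 2.70 and 3.03 in Ctrl against 2.91 and 2.54 in WC1. In both ratios the groups overlapped (exact permutation p = 0.667). *Pnpla2* to its co-activator *Abhd5* was 5.80 and 6.98 in Ctrl against 8.07 and 8.86 in WC1, and *Plin1* to *Abhd5* was 3.51 and 4.15 against 5.64 and 7.08. Both were higher in both WC1 libraries, by 0.41 and 0.73 on the log2 scale (exact permutation p = 0.333 each). Among the lipases, *Lipe* to *Pnpla2* was 0.602 and 0.582 in Ctrl against 0.632 and 0.752 in WC1, and *Mgll* to *Lipe* was 1.19 in both Ctrl libraries and 1.49 and 1.24 in WC1. *Cidec* to *Plin1* was 6.08 and 5.92 in Ctrl against 5.25 and 5.19 in WC1, the only ratio examined that was lower in both WC1 libraries. The widest gap was that of *Plin1* to *Plin2*, at 0.103 and 0.131 in Ctrl against 0.238 and 0.423 in WC1, a log2 change of 1.45. The exact permutation p was 0.333 for each of these last 4 ratios.

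Markers of the cells that carry these droplets moved in the same libraries. The 12 adipocyte markers summed to 9009 and 10398 CPM in Ctrl and to 17396 and 23949 CPM in WC1, 2.13-fold higher on average, and 10 of the 12 were called higher. Among them, the adipokine *Cfd* rose by 1.66 in log2 units (adjusted p = 0.037 in limma), and the carbonic anhydrase *Car3* by 1.49 (0.049). The fatty acid binding protein *Fabp4*, the most abundant of the list, had a log2 change of 0.80 and was not called (0.11). The 12 macrophage markers summed to 13453 and 12404 CPM in Ctrl and to 8093 and 5782 CPM in WC1, and 7 of them were called lower. The lysozyme gene *Lyz2* fell by 1.25 in log2 units (adjusted p = 0.036), and the lysosomal protein *Cd68* had a log2 change of -0.67 (0.0998, not called). The 8 markers of lipid-associated macrophages, the lipid-laden macrophages of obese fat, summed to 24342 and 22259 CPM in Ctrl and to 20556 and 17138 CPM in WC1, with 2 called lower. Much of that sum was *Lpl*, which adipocytes also express, and without it the sums were 14912, 13129.6, 9786 and 5753 CPM in Ctrl 1, Ctrl 2, WC1 1 and WC1 2. In this list *Spp1*, which encodes osteopontin, fell by 2.70 in log2 units (adjusted p = 0.016), and *Gpnmb* had a log2 change of -1.08 (0.11, not called). The 8 fibroblast markers summed to 11038 and 10679.96 CPM in Ctrl against 9967 and 7697 CPM in WC1, and 3 of them were called lower. Endothelial markers summed to between 400.5 and 436 CPM in Ctrl and between 767 and 973 CPM in WC1, 2.08-fold higher on average, and 4 of the 7 were called higher. The summed level of the 6 mesothelial markers overlapped between groups, at 60.7 to 163 CPM. The 4 B cell markers summed to 4.31, 2.59, 7.24 and 26.4 CPM in Ctrl 1, Ctrl 2, WC1 1 and WC1 2, with 1 called higher, and WC1 2 stood apart. Markers of brown adipocytes summed to at most 15.5 CPM, those of T and NK cells to 11.6 CPM, hepatocyte markers to at most 26.3 CPM and skeletal muscle markers to at most 18.1 CPM in any library.

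Levels relative to the Ctrl mean set members and marker sums side by side. In Ctrl 1, Ctrl 2, WC1 1 and WC1 2 the adipocyte sum was at 0.928, 1.07, 1.79 and 2.47 times its Ctrl mean, and *Plin1* at 0.895, 1.10, 1.77 and 2.33. *Plin2* was at 1.02, 0.982, 0.867 and 0.640, and the macrophage sum at 1.04, 0.959, 0.626 and 0.447. The lipid-associated macrophage sum was at 1.04, 0.955, 0.882 and 0.736 with *Lpl* and at 1.06, 0.936, 0.698 and 0.410 without it. Whether *Plin2* lay above or below the lipid-associated macrophage sum in WC1 thus depended on *Lpl*. WC1 2, the library with the highest adipocyte sum and the lowest macrophage sum, also had the highest CPM of 9 members and the lowest CPM of *Plin2*. The sum without *Lpl* was added after its values were seen. The part of cell composition in the members' changes was not tested.

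**Figure D4:**
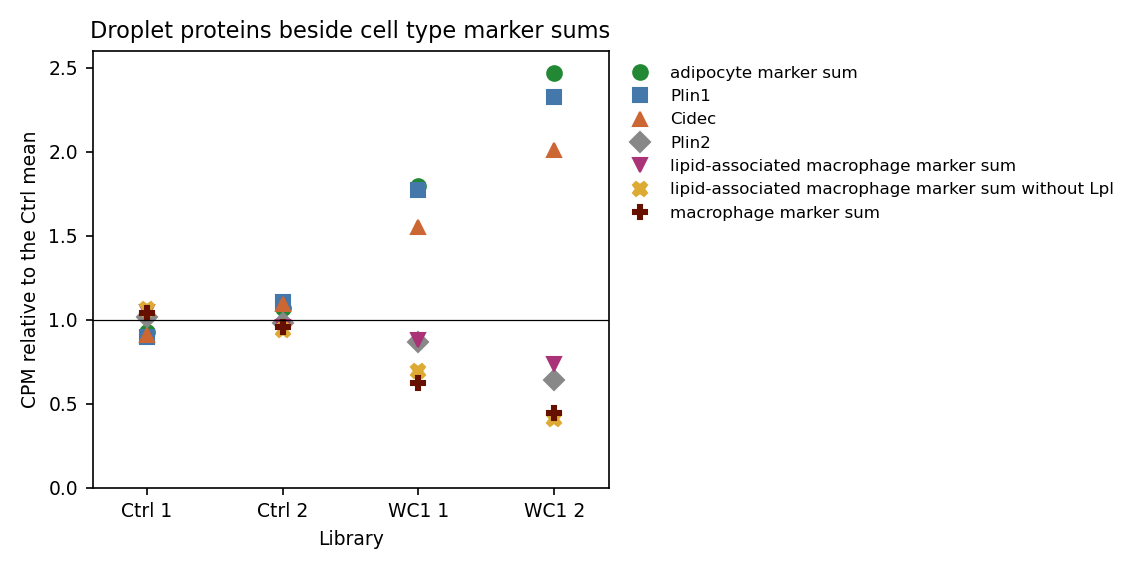
CPM relative to the Ctrl mean (y axis, linear from 0) in each library for Plin1, Cidec and Plin2 and for the sums of adipocyte, macrophage and lipid-associated macrophage markers (the latter with and without Lpl). In WC1 2 the adipocyte sum is at 2.47 and Plin1 at 2.33, while Plin2 is at 0.640, the macrophage sum at 0.447 and the lipid-associated macrophage sum at 0.736 with Lpl and 0.410 without it.

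When each library was scaled to an equal sum of adipocyte markers and the fit repeated, 0 members were called higher and 2 were called lower. On this scale the median log2 change of all genes was -1.0, 0.461% of them were called higher and 80.2% of all genes tested were called lower, so a call of lower is the common outcome there. The median of the members was -0.19. *Plin1* was 2.96% and 3.16% of the adipocyte sum in Ctrl and 3.03% and 2.89% in WC1, a log2 change of -0.048 (95% confidence interval, -0.76 to 0.67). *Plin4*, at 8.60%, 9.13%, 9.51% and 8.36% in Ctrl 1, Ctrl 2, WC1 1 and WC1 2, and *Mgll*, at 6.88%, 7.25%, 8.00% and 6.62%, likewise overlapped between groups, as did *Ces1d*. The intervals of these 4 genes reached from -0.82 (*Ces1d*) to 0.77 (*Mgll*) on the log2 scale. *Pnpla2* (-0.37), *Lipe* (-0.13), *G0s2* (-0.29) and *Cidec* (-0.25) were below in both WC1 libraries without passing (limma, adjusted p between 0.35 and 0.75). These changes all lay above the all-gene median of -1.0. The overlap depended on the scale: against the sum without *Fabp4*, *Plin1*, *Plin4* and *Ces1d* were below in both WC1 libraries too (*Plin1* at 7.33% and 6.79% in Ctrl against 6.03% and 5.14% in WC1), and against the geometric mean of the markers *Plin1* and *Ces1d* were, without passing on either scale. *Mgll* overlapped between groups on all 3 scales. How many of all genes lay below in both WC1 libraries was not counted on any of these scales.

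The 2 members called lower against adipocyte markers were those that rose least or not at all on CPM. *Abhd5* was 1.41% and 1.27% of the adipocyte sum in Ctrl and 0.898% and 0.684% in WC1, a log2 change of -0.77 (95% confidence interval, -1.46 to -0.076; limma, adjusted p = 0.038). *Plin2* was 29.0% and 24.2% in Ctrl against 12.8% and 6.85% in WC1, a log2 change of -1.50 (95% confidence interval, -2.24 to -0.76; adjusted p = 0.00039). The sign of *Abhd5* differs from that on CPM because the scaling lowers all genes, and at -0.77 it lay above the all-gene median of -1.0. Without *Fabp4*, which makes up much of the adipocyte sum, both were again called lower, where 0.163% of all genes were called higher and 80.4% lower. With the geometric mean of the 12 markers as the scale *Plin2* alone was (-1.62, adjusted p = 0.0046), where the shares were 0.262% and 76.7%.

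A wider list held 33 other neutral lipid hydrolases and their relatives. Of these, 32 were in the matrices and 20 were tested, 3 were called higher and 1 lower, which is near the 10.2% and 7.71% of all genes, and the median log2 change was -0.017. *Pnpla3*, a relative of *Pnpla2* found in adipocytes and hepatocytes, rose from 137 and 152 to 256 and 369 CPM (1.09 ± 0.19, adjusted p = 0.026). *Pnpla8*, a phospholipase of mitochondria and peroxisomes, rose from 108 and 115 to 146 and 165 CPM (0.48 ± 0.088, adjusted p = 0.030). *Abhd6*, another monoacylglycerol lipase, rose from 9.08 and 9.06 to 12.8 and 15.2 CPM (0.57 ± 0.12, adjusted p = 0.036). The carboxylesterase *Ces2g* fell from 29.2 and 26.1 to 16.1 and 13.5 CPM (-0.86 ± 0.12, adjusted p = 0.020), in the opposite direction to *Ces1d*.

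The 3 genes of that list with the highest mean CPM were not called. *Lpl*, which encodes lipoprotein lipase of the vessel wall, stood at 9430.2 and 9129.8 CPM in Ctrl against 10770.4 and 11384 CPM in WC1 (0.26, adjusted p = 0.59). *Lipa*, which encodes the acid lipase of the lysosome, stood at 1724 and 1585 CPM in Ctrl against 1148 and 748 CPM in WC1 (-0.83 ± 0.23, adjusted p = 0.066). It is a hydrolase of the lysosomal route rather than of the droplet surface, and both of its WC1 libraries lay below both Ctrl libraries. *Abhd12*, a lysophospholipid hydrolase, overlapped between groups at 333 to 432 CPM (-0.18, adjusted p = 0.36).

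A list of other droplet proteins held 24 symbols, in which *Ldaf1* and *Tmem159* name the same gene. Of these symbols, 23 were in the matrices and 20 were tested, with 3 called higher, 1 lower and a median log2 change of 0.055. The calls were thus again near the share over all genes (10.2% and 7.71%). *Fitm2*, needed for droplets to bud from the endoplasmic reticulum, rose from 31.3 and 32.4 to 55.8 and 60.7 CPM (0.85 ± 0.077, adjusted p = 0.012). *Bscl2*, which encodes seipin of the droplet assembly site, rose from 138 and 149.8 to 201 and 252 CPM (0.64 ± 0.13, adjusted p = 0.034). *Plin5*, a perilipin of oxidative tissues, rose from 6.81 and 7.71 to 11.2 and 10.4 CPM (0.51 ± 0.11, adjusted p = 0.039). *Hilpda*, a hypoxia-induced droplet protein that, like *G0s2*, inhibits adipose triglyceride lipase, fell from 79.0 and 76.4 to 39.97 and 25.6 CPM (-1.25 ± 0.21, adjusted p = 0.025). Per length, the messages of these inhibitors stood at 176 ± 15.2 TPM for *G0s2* and 152 ± 2.46 TPM for *Hilpda* in Ctrl, and at 338 ± 72.6 and 70.3 ± 20.4 TPM in WC1, so that *G0s2* was the more abundant of them in both groups. Of the 3 genes with the highest mean CPM in this list, *Bscl2* is given above, and *Dhrs3*, a retinal reductase, and *Aup1*, a droplet protein of lipid and protein turnover, were not called (-0.25 each, adjusted p = 0.15 and 0.11).

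**Figure D5:**
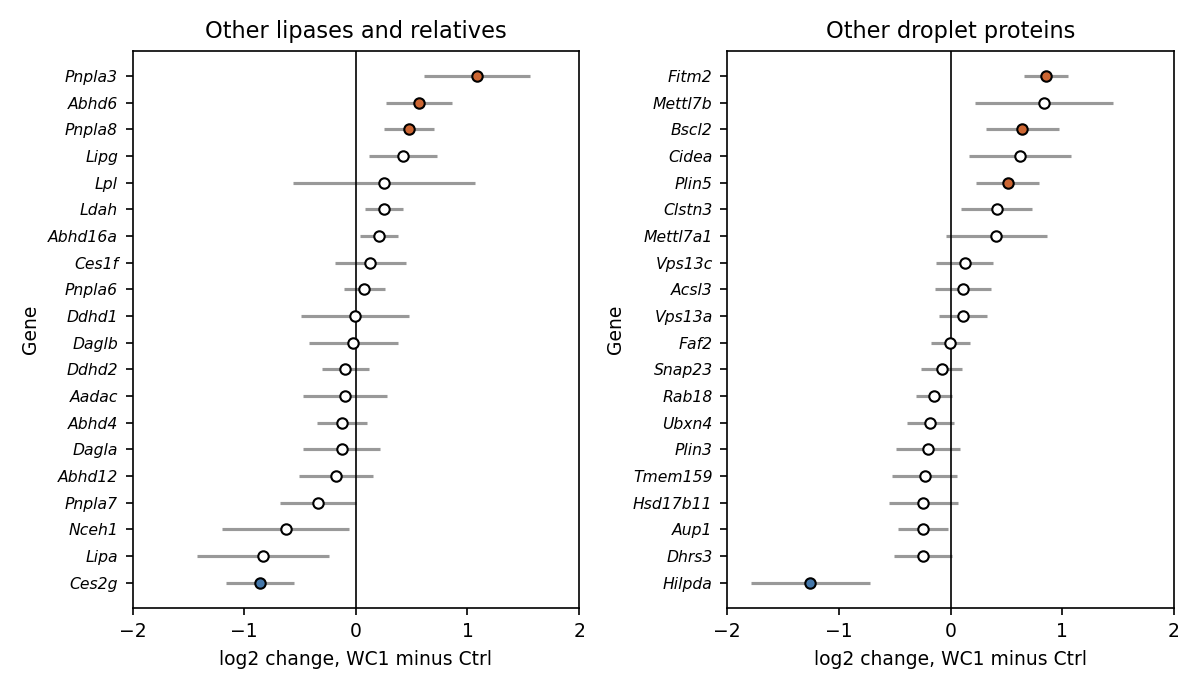
Log2 change (x axis, WC1 minus Ctrl) of the 20 other lipases and relatives and the 20 other droplet proteins that were tested, with 95% confidence intervals from limma; filled points passed the threshold. Pnpla3 (1.09), Pnpla8, Abhd6, Fitm2 (0.85), Bscl2 and Plin5 are filled on the right, and Ces2g (-0.86) and Hilpda (-1.25) on the left.

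Either Ctrl library decided these counts too: without Ctrl 1 or without Ctrl 2, 0 genes of either list passed, while at an unadjusted p under 0.05 limma counted 4 and 4 of the 20 lipases and 4 and 5 of the 20 droplet proteins, near the 18.6% and 22.1% of all genes. Without WC1 1 there were 11 lipases (4 higher, 7 lower) and 12 droplet proteins (6 higher, 6 lower), in a fit that called 17.2% of all genes higher and 19.5% lower.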

How the data were processed

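Directional poly(A) libraries of epididymal adipose tissue were sequenced, 2 of Ctrl and 2 of WC1, and grouped by their titles. The submitters' processing notes name fastp, HISAT2, StringTie and the mm10 build. The counter, annotation and strand setting behind the reads per gene were not given in the sources used here. The authors deposited a matrix they call CPM, whose columns sum to between 976415 and 1047785, so it was treated as a signal proportional to reads: each value was a whole multiple of 1 read (100% of values, to within 0.01 read), which gave the read totals. The authors also deposited TPM. At these depths 3 reads corresponded to between 0.0345 and 0.0492 CPM, for counting error only.

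A gene was tested if 2 or more of the 4 libraries held it at 0.5 CPM or above (14106 of 24421). The comparison was made with limma 3.58.1 (R 4.3.3) on log2(CPM + 1), with an abundance trend, and p-values (two-sided) were adjusted by Benjamini-Hochberg over every gene tested, with a call below 0.05. This scale understates the fold changes of low genes. Alternatives were other pseudocounts (0.1 and 5), other filters, TPM, quantile normalization, scaling to adipocyte markers, edgeR 4.0.16 and DESeq2 1.42.0 on the recovered reads, a replicate block and each library left out. Scripts were tested on simulated data.

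The members and gene lists were chosen with earlier results of these data known. Named genes were all members, the called genes and the 3 of highest mean CPM of each wider list, and, of the adipocyte and macrophage marker lists, the 2 most abundant and the 1 with the largest change. *Ces1f* is named as a paralog and *Lamb3* and *Hdgfl2* (*Hdgfrp2* in the matrices) as overlapping genes. Positions are from GENCODE M21 (GRCm38, the same assembly as mm10) and promoter windows from RefSeq (GRCm38.p6).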

Additional observations from a re-analysis of the deposited data

How the results depend on the processing

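Of 150 member values (10 genes under 15 alternatives), 108 kept direction and side of the threshold, 26 kept direction but were no longer called, 17 of them with a library left out, 9 became called and 7 reversed. The reversals came from scaling to equal adipocyte markers, which subtracts the rise of those markers (median of all genes -1.0): *Pnpla2* -0.37, *Lipe* -0.13, *Abhd5* -0.77, *G0s2* -0.29, *Plin1* -0.048, *Cidec* -0.25 and *Ces1d* -0.12, with a median over members of -0.19 in place of 0.89. There 2 members, 16 wider lipases and 13 wider droplet proteins were called, all lower, where 80.2% of all genes were, and with the geometric mean of the markers 1 member was (76.7% of all genes).

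Without a filter on low values 18132 genes were tested and 2 members, 1 wider lipase and 1 wider droplet protein were called, and the counts of calls over all genes were 788 higher and 532 lower, against 1443 and 1088. DESeq2 called 8 wider lipases and 7 wider droplet proteins, against 4 and 4, and also more of all genes (15.1% higher and 12.3% lower, against 10.2% and 7.71%). With each library left out, between 0 and 10 members, 0 and 11 wider lipases and 0 and 12 wider droplet proteins were called. Without Ctrl 1 the calls over all genes were 2 higher and 4 lower, and without Ctrl 2 they were 6 and 6. The cause was not tested. On TPM the median of all genes was 0.10, against -0.019 on CPM, and the split of calls over all genes moved to 2054 higher and 583 lower.

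The library numbers are not said to pair the libraries, and the differences between library 1 and library 2 correlated over genes with r = 0.19 between the groups (2 pairs). With the replicate block 9 members were called, *Cidec* in addition, and 6 and 6 genes of the wider lists, while the share of all genes called went from 10.2% higher and 7.71% lower to 12.5% and 10.6%.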
